A study of Mus musculus with 6 samples.

Results

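The genes followed here are 10 transcription regulators of smooth muscle and mesenchyme, namely Myocd, Srf, Mef2a, Mef2c, Mef2d, Tcf21, Foxf2, Hic1, Ebf1 and Heyl. They were taken by symbol from a table of counts for 23478 genes, all 10 were found, and all 10 passed the filter on low counts, which left 19375 genes tested. RNA had been sequenced from cells of embryonic mouse tracheas at day 13.5 of gestation, in 3 libraries of muscle and 3 of epithelium. Embryos of both groups carried floxed Bmp4 and an eGFP reporter named for gamma smooth muscle actin (genotype Bmp4 f/f; gamma SMA eGFP), every sample is titled a control, and the labels name no Cre. For muscle, cells were sorted by GFP, and for epithelium by an APC-coupled antibody to the surface protein Epcam, so muscle is defined by the activity of 1 reporter and can include any cell that activates it. Neither the number of embryos behind a library nor whether the replicates were separate animals is given, so p-values measure the spread between these libraries, which may be technical.

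Smooth muscle genes are switched on by serum response factor, the product of Srf, which binds a short element called the CArG box and needs a coactivator to do so strongly at contractile genes. Myocardin, the product of Myocd, is that coactivator in cardiac and smooth muscle, whereas the myocardin-related factors are made in most cells and move to the nucleus when actin polymerises. MEF2 proteins bind a related AT-rich site and are restrained by class IIa histone deacetylases. Tcf21, Foxf2, Hic1 and Ebf1 mark or pattern mesenchyme, and Heyl is a repressor of the Hes and Hey family induced by Notch signalling.

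The libraries held 11847432 to 54848820 counts. All 7 smooth muscle markers were higher in muscle and all 7 epithelial markers were higher in epithelium, as the labels of the sorted groups state. They include Epcam, the protein of the epithelial sort, and Actg2, which names the reporter, so these genes are no independent check of the sort. Muscle replicate 2 stood apart: its summed level of those smooth muscle markers was 3809 CPM (counts scaled to a common library size with TMM, the trimmed mean of M-values), against 15498 and 16469 in muscle replicates 1 and 3. Epithelium replicate 2 held the highest summed level of 6 fibroblast markers among the epithelial libraries, 1415 CPM against 241 and 176 in epithelium replicates 1 and 3, and the muscle libraries held 4455 to 6481 CPM. Background also differed, since the summed CPM of 1456 olfactory and vomeronasal receptor genes, taken over unscaled totals, reached 883 for muscle 2, 1817 for epithelium 2 and 636 for epithelium 3, and 7.26 to 37.8 for the rest. The header of the table carries identifiers that read as an earlier date for both replicates numbered 2 and a later date for the other 4 libraries. The separate date row of the header reads 2/15/21 for all 6 libraries. Below, header date means the date read from the identifiers, and what it stands for is not stated. Values within each such date are given where they bear on a gene. The part of these differences in the results was not tested.

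Of the 10 regulators, 5 were higher in muscle (Myocd, Mef2c, Mef2d, Tcf21 and Heyl), at an adjusted p under 0.05 in the quasi-likelihood test of edgeR with Benjamini-Hochberg adjustment over all genes tested, where 6.58% of all genes tested were higher in muscle. None of the 10 was higher in epithelium, where 4.11% of all genes were. At an unadjusted p under 0.05, 7 regulators were higher in muscle, where 13.5% of all genes were, and the other 3 passed in neither direction, and DESeq2 and limma-voom likewise called 0 higher in epithelium. In 7 regulators the lowest muscle library exceeded the highest epithelial library, an arrangement found in 16.4% of all genes tested. The median log2 fold change (muscle over epithelium) of the 10 was 2.18, beside -0.10 over all genes tested. Without TMM scaling the median of all genes was -0.33, and 1041 of 2480 genes called were higher in muscle, against 1274 of 2071 with it. Leaving out 1 library changed the number of regulators called higher in muscle to 2 (without muscle replicate 1 or without epithelium replicate 3) or 3 (without muscle replicate 3). It became 4 without muscle replicate 2 and 6 without epithelium replicate 1 or 2. Of all genes tested, 3.94%, 8.25% and 3.48% were higher in muscle without muscle replicates 1, 2 and 3. Without epithelium replicates 1, 2 and 3 that share was 4.9%, 6.26% and 2.82%.

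**Figure D1:**
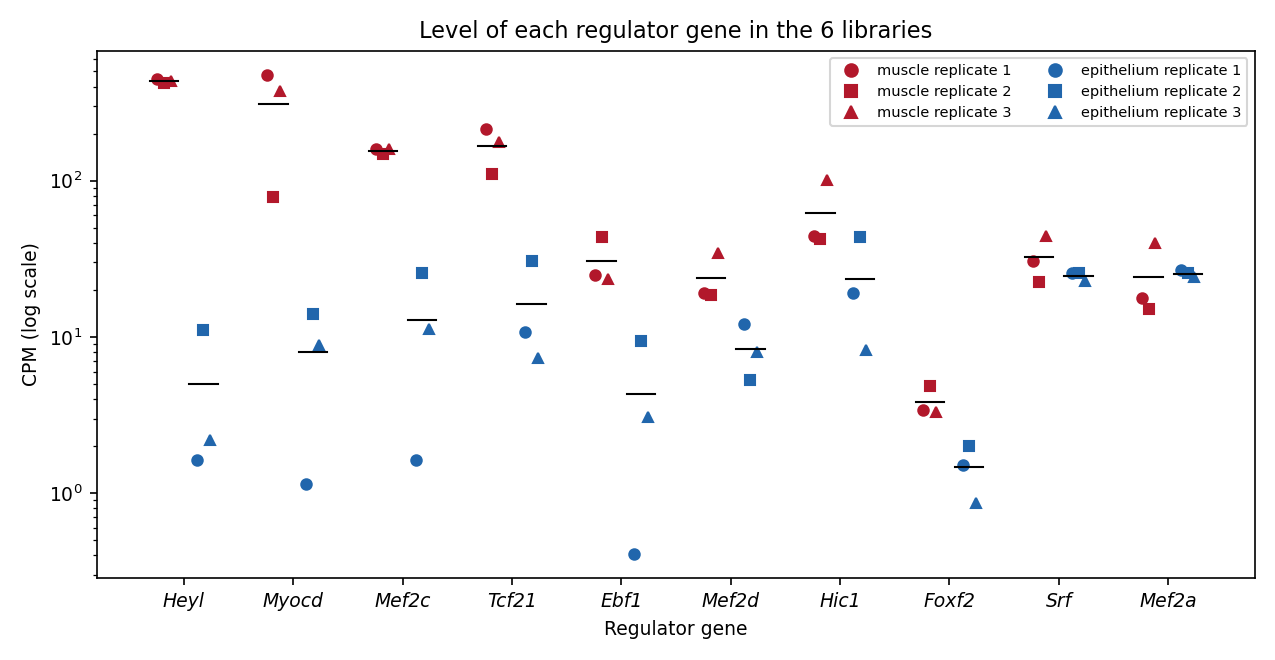
Level of each regulator gene in CPM (log axis) in each of the 6 libraries, with muscle in red, epithelium in blue, a marker shape per replicate number and a black line at each group mean. Heyl and Myocd lie farthest apart between the groups, whereas Srf and Mef2a overlap.

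**Figure D2:**
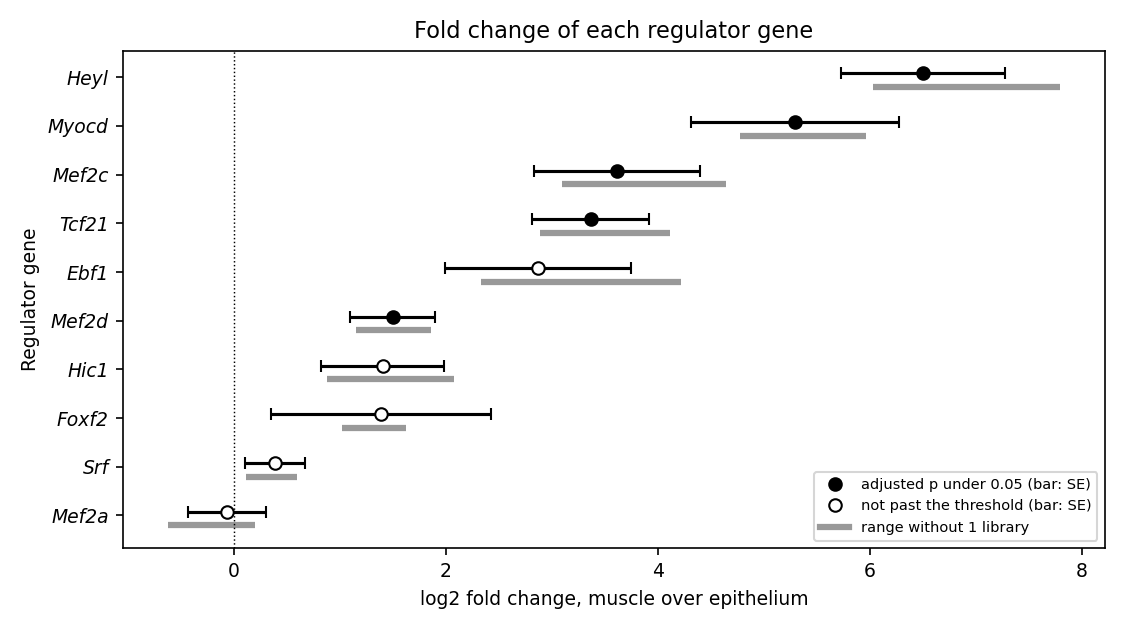
Log2 fold change of muscle over epithelium for each regulator gene, with the SE as a bar, filled where the adjusted p is under 0.05, and a grey line for the range when 1 library is left out. The values run from -0.06 (Mef2a) to 6.50 (Heyl).

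Myocd (chr11:65176561-65269989, minus strand, mm10, GENCODE M21) encodes myocardin. Its level was 476, 78.1 and 373 CPM in muscle (replicates 1, 2 and 3, the order used throughout), while epithelium had 1.15, 14.1 and 8.83 CPM. All muscle libraries lay above all epithelial ones, muscle replicate 2 was the lowest of the muscle libraries and epithelium replicate 2 the highest of the epithelial ones. Mean level was 309 ± 207 CPM in muscle and 8.03 ± 6.51 CPM in epithelium (SD, n = 3 each). The log2 fold change was 5.29 ± 0.98 (SE), with an edgeR adjusted p of 0.0095. The difference was 5.54-fold within the earlier header date (1 library of each group, no test) and 85.1-fold between the means of the later date. The call did not hold without muscle replicate 1 (edgeR adjusted p = 0.051), without epithelium replicate 3 (0.066) or with the summed receptor gene background as a covariate (0.13).

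Srf (chr17:46548329-46556175, minus strand) encodes the DNA-binding partner of myocardin. Its level was 30.4, 22.6 and 44.0 CPM in muscle and 25.7, 25.5 and 22.9 CPM in epithelium. The groups overlapped: muscle replicate 2 was the lowest of the 6 libraries and muscle replicate 3 the highest. The log2 fold change was 0.39 ± 0.28 (SE; edgeR adjusted p = 0.57), and the mean epithelial level was 76.4% of the mean muscle level. The absence of a call does not show equal levels. Per Srf count, Myocd had 15.7, 3.45 and 8.48 counts in the muscle libraries against 0.0448, 0.554 and 0.385 in the epithelial libraries. The lowest muscle ratio was in replicate 2 and the highest epithelial ratio was in replicate 2, and the groups did not overlap.

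Srf is itself a gene with CArG boxes in its promoter, and so are contractile genes that it serves, so the boxes are shown. Promoters were taken as 250 bases before to 50 bases after the start site (RefSeq, GRCm38.p6), and 8 of the 10 regulators and 15 of 18 contractile genes had an entry. The CArG box was searched on both strands and is in capitals in the 3 stretches shown first, each written 5′ to 3′ on the gene's strand.
Srf, chr17:46556203-46556256, minus strand: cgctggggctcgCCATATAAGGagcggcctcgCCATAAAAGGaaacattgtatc
Myl9, chr2:156775291-156775324, plus strand: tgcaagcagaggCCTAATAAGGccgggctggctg
Vcl, chr14:20929159-20929192, plus strand: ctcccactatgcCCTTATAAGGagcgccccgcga
Synpo2, chr3:123236364-123236397, minus strand, with a MEF2 site in capitals: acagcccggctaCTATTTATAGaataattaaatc
The Srf stretch holds a pair of CArG boxes, at -82 to -73 and at -62 to -53 from the start site. Srf was the only 1 of the 8 regulators with a match (12.5%), and Myl9, a myosin light chain gene, and Vcl, the gene of vinculin, were the 2 of 15 contractile genes with 1 (13.3%), against 1.81% of 27025 genes and 1.63% of 32851 promoters. A MEF2 site lay in 1 of the 8 regulators (Mef2a, at -2 to 7) and in 1 of the 15 contractile genes (Synpo2, 6.67%), against 3.70% of genes and 3.19% of promoters. No match of one motif listed here overlapped a match of the other. A match is only a match of letters, and a lack of one says only that the letters are not in that window. Myl9 and Vcl rose in muscle by log2 fold changes of 6.62 and 2.52, and Synpo2, an actin-binding protein gene, by 5.67 (edgeR adjusted p = 0.00058, 0.0023 and 0.0014). All 18 contractile genes rose, by 2.52 (Vcl) to 9.77 (Actg2) with a median of 5.90, so a rise is not particular to genes with a match. The level of Srf, with 2 boxes, overlapped between the groups. A link between a match and a level was not tested.

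The Mef2 genes differed among themselves. Mef2c (chr13:83504034-83667080, plus strand), a MEF2 factor of heart, skeletal and smooth muscle development, was at 159, 148 and 159 CPM in muscle and at 1.64, 25.8 and 11.2 CPM in epithelium. Muscle libraries were alike, with a coefficient of variation of 4.19%, while the epithelial ones ranged 15.8-fold, with replicate 2 highest and replicate 1 lowest, and the groups did not overlap. Means were 156 ± 6.52 and 12.9 ± 12.2 CPM (SD, n = 3 each), and the log2 fold change was 3.62 ± 0.79 (SE; edgeR adjusted p = 0.020). The edgeR adjusted p was 0.083, 0.057 and 0.070 without muscle replicates 1, 2 and 3 and 0.12 without epithelium replicate 3, and 0.056 without TMM scaling. Within the earlier and later header dates the difference was 5.74-fold and 24.9-fold.

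Mef2d (chr3:88142372-88172086, plus strand) was at 18.97, 18.4 and 34.2 CPM in muscle and 12.01, 5.28 and 7.96 CPM in epithelium. No overlap was seen, and muscle replicate 3 and epithelium replicate 1 were the highest of their groups. The log2 fold change was 1.50 ± 0.40 (SE; edgeR adjusted p = 0.047), and the mean epithelial level was 35.3% of the muscle mean. The edgeR adjusted p rose above 0.05 on leaving out muscle 1 (0.070), muscle 3 (0.26), epithelium 2 (0.11) or epithelium 3 (0.19), and over the 4 libraries of the later date it was 0.080. It was 0.061 without TMM scaling and 0.059 with the size factors of DESeq2, and limma-voom gave 0.060, so the call rests on settings as well as on libraries. Exons of Mef2d share 531 bases (8.87% of its exon length) with the antisense gene 1700113A16Rik, whose reads cannot be told from it without strand.

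Mef2a (chr7:67231163-67372858, minus strand), a broadly expressed MEF2 gene, was at 17.8, 15.0 and 40.0 CPM in muscle and at 26.7, 25.5 and 24.0 CPM in epithelium. Muscle replicate 3 was the highest and muscle replicates 1 and 2 the lowest of the 6 libraries, so the groups overlapped. The log2 fold change was -0.06 ± 0.37 (SE; edgeR adjusted p = 0.97), and it was 0.13 without muscle replicate 1, 0.20 without muscle replicate 2 and 0.12 over the libraries of the later header date. No direction is given. Exons of Mef2a share 302 bases with Lysmd4 on the opposite strand.

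Of the counts on the 4 Mef2 genes, Mef2c took 81.1%, 80.9% and 68.2% in the muscle libraries against 3.89%, 43.7% and 23.3% in the epithelial libraries. Exact 95% binomial intervals cover counting error only. They treat each count as independent although counts include PCR copies, so they may be too narrow. They ran from 67.2% to 82.2% over the muscle libraries and from 3.13% to 47.1% over the epithelial libraries. The share, of counts and not of levels per length, was 76.7 ± 7.40% and 23.6 ± 19.9% (SD, n = 3 each), a difference of 53.1 percentage points that an exact two-sided permutation test gave p = 0.10, the smallest possible with 20 arrangements. In epithelium Mef2a took 63.5%, 43.1% and 50.2% of the counts. In muscle Mef2a took 9.05%, 8.22% and 17.1%. Mef2b took at most 9.88% of the counts in any library. Per kilobase of exon, Mef2c was the highest of the 4 in every muscle library, at 9.42 to 10.1 CPM per kilobase. In epithelium the highest per kilobase in replicate 1 was Mef2d (2.01, with Mef2a at 1.82). In replicates 2 and 3 it was Mef2b (1.76 and 3.37, with Mef2a at 1.73 and 1.64), from 37 and 126 counts. The 2.47 CPM of Mef2b in replicate 2 lay under the 95th percentile of the receptor genes there, 3.54 CPM. Exons of Mef2b share 62 bases (4.42% of its exon length) with Borcs8 on the same strand.

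**Figure D3:**
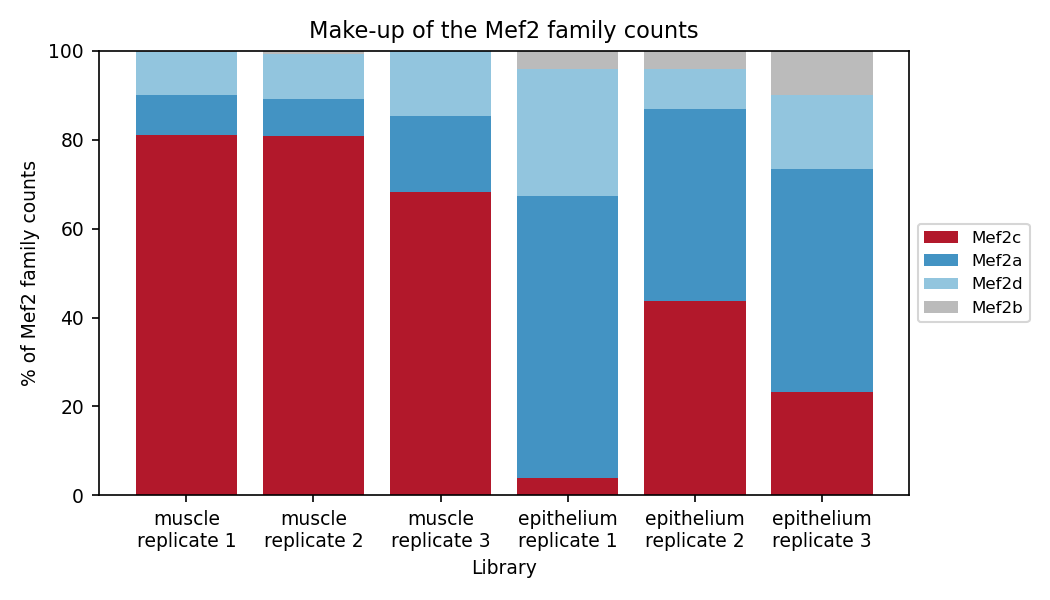
Percent of the counts on the 4 Mef2 genes taken by each gene, as a stacked bar per library. Mef2c takes 68.2% to 81.1% in the muscle libraries and 3.89% to 43.7% in the epithelial ones.

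Among the mesenchymal regulators, Tcf21 (chr10:22817281-22820174, minus strand), a basic helix-loop-helix factor of lung, kidney and heart mesenchyme, was at 214, 110.3 and 177 CPM in muscle and at 10.8, 30.8 and 7.32 CPM in epithelium. No muscle value fell within the epithelial range, and muscle replicate 2 was lowest in muscle and epithelium replicate 2 highest in epithelium. Means were 167 ± 52.3 and 16.3 ± 12.7 CPM (SD, n = 3 each), and the log2 fold change was 3.37 ± 0.55 (SE; edgeR adjusted p = 0.0049). The difference was 3.58-fold within the earlier and 21.6-fold within the later header date. Tcf21 was past the threshold under all 17 alternatives run for it, with an adjusted p of at most 0.044.

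Foxf2 (chr13:31625816-31631403, plus strand), a forkhead factor of gut and palate mesenchyme, had few counts, at 3.38, 4.84 and 3.31 CPM in muscle and 1.52, 2.00 and 0.864 CPM in epithelium, from 23 to 131 counts a library. The groups did not overlap, yet the log2 fold change of 1.39 ± 1.04 (SE) did not pass the test (edgeR adjusted p = 0.59). In epithelium replicates 2 and 3 Foxf2 did not exceed the 95th percentile of the receptor genes, 3.54 and 1.43 CPM, whereas the other 9 regulators did. These percentiles use the same TMM-scaled library sizes. Its exons share 98 bases with a microRNA gene, Gm27516, on the opposite strand.

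Hic1 (chr11:75164565-75169519, minus strand), a zinc finger repressor that marks mesenchymal progenitors, was at 43.9, 42.0 and 101 CPM in muscle and 19.1, 43.5 and 8.30 CPM in epithelium. Epithelium replicate 2 lay above muscle replicate 2, so the groups overlapped. The log2 fold change was 1.41 ± 0.58 (SE; edgeR adjusted p = 0.19), and without epithelium replicate 2 the adjusted p was 0.041. Within the earlier date the ratio was 0.966 and within the later date it was 5.29 (edgeR adjusted p = 0.041 over those 4 libraries).

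Ebf1 (chr11:44617317-45008091, plus strand), an early B-cell factor gene also active in mesenchyme, was at 24.9, 43.9 and 23.6 CPM in muscle and 0.409, 9.42 and 3.08 CPM in epithelium. No overlap was seen, and in both groups replicate 2 was the highest. The log2 fold change of 2.87 ± 0.88 (SE) missed the threshold (edgeR adjusted p = 0.078). It passed without epithelium replicate 1 (0.013) or epithelium replicate 2 (0.016), with the header date as a factor (0.034), over the libraries of the later date (0.046) and with the receptor gene background as a covariate (0.00035). It also passed with DESeq2 (0.018) and limma-voom (0.0031).

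Heyl (chr4:123233556-123249875, plus strand), the Notch-induced repressor, had the largest fold change of the 10. It was at 448, 419.7 and 434 CPM in muscle and at 1.64, 11.1 and 2.18 CPM in epithelium. The muscle libraries varied by a coefficient of variation of 3.26%, epithelium replicate 2 was the highest epithelial library, and the groups did not overlap. Means were 434 ± 14.1 and 4.97 ± 5.31 CPM (SD, n = 3 each), and the log2 fold change was 6.50 ± 0.77 (SE; edgeR adjusted p = 0.0012). The difference was 37.8-fold within the earlier and 231-fold within the later header date, and the adjusted p was at most 0.0088 under all 17 alternatives run for it.

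Because bulk counts are used, fewer cells of a type and less RNA per cell cannot be told apart. In epithelium, 7 regulators (Myocd, Mef2c, Tcf21, Foxf2, Hic1, Ebf1 and Heyl) were highest in replicate 2. That library also had the highest fibroblast marker sum and receptor gene sum of its group. Of these regulators, 4 (Myocd, Mef2c, Ebf1 and Heyl) were lowest in replicate 1. How many of all genes tested have the same orders was not counted, so the counts are not read as particular to the regulators. The fibroblast collagen genes Col1a1 and Col1a2 were at 570.0 and 502 CPM in epithelium replicate 2 and at 54.9 to 87.5 CPM in the other epithelial libraries. Summed over their list, endothelial markers were 2.03, 57.6 and 22.3 CPM in epithelium replicates 1 to 3 and pericyte markers were 32.1, 102 and 29.4 CPM, and their part in the epithelial levels of the regulators was not tested. The mean epithelial level was 1.15% of muscle for Heyl, 2.60% for Myocd, 8.27% for Mef2c and 9.77% for Tcf21, next to a median of 1.71% over the 18 contractile genes (range 0.12% for Actg2 to 17.5% for Vcl).

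In muscle, 8 of the 10 regulators were lowest in replicate 2, all but Foxf2 and Ebf1. The share of all genes lowest in that library was not counted. As a percent of the mean of replicates 1 and 3, replicate 2 held 18.4% of Myocd, 52.0% of Mef2a, 56.5% of Tcf21, 58.0% of Hic1, 60.8% of Srf and 69.3% of Mef2d. It held 92.9% of Mef2c and 95.2% of Heyl, and 145% of Foxf2 and 181% of Ebf1. Over 9371 genes averaging 4 or more in log2 CPM the median was 72.2% (quartiles 62.2% to 85.0%), and over the 18 contractile genes it was 28.0% (range 12.7% to 86.1%), with 16 of the 18 under 50%. Myocd thus lay among the contractile genes in that library, while Mef2c and Heyl lay above the upper quartile of these 9371 genes. Of them, 1119 were called higher in muscle, with a median of 74.9% (quartiles 59.4% to 91.4%), and Mef2c and Heyl lay little above that upper quartile. The fibroblast and pericyte marker sums of replicate 2 (5753 and 1023 CPM) were near those of replicates 1 and 3 (4455 and 6481, and 1057 and 1156 CPM). Gene by gene, as a percent of the mean of replicates 1 and 3, the median was 126% over 6 fibroblast markers (range 82.9% to 483%). Over 6 pericyte markers it was 115% (73.8% to 178%). Summed over 7 skeletal myoblast markers, the 3 muscle libraries had 1089, 220.3 and 978 CPM, most of it Actc1 (722, 204 and 948 CPM), which is also a cardiac and smooth muscle gene. Myog was at 245, 1.20 and 17.3 CPM and Myod1 at 62.1, 0.499 and 3.82 CPM in these libraries, whereas Pax7 (0.912, 4.54 and 0.101 CPM) and Ckm (0.304, 1.50 and 0.404 CPM) were highest in replicate 2. The part of these markers in the levels of Mef2c was not tested.

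**Figure D4:**
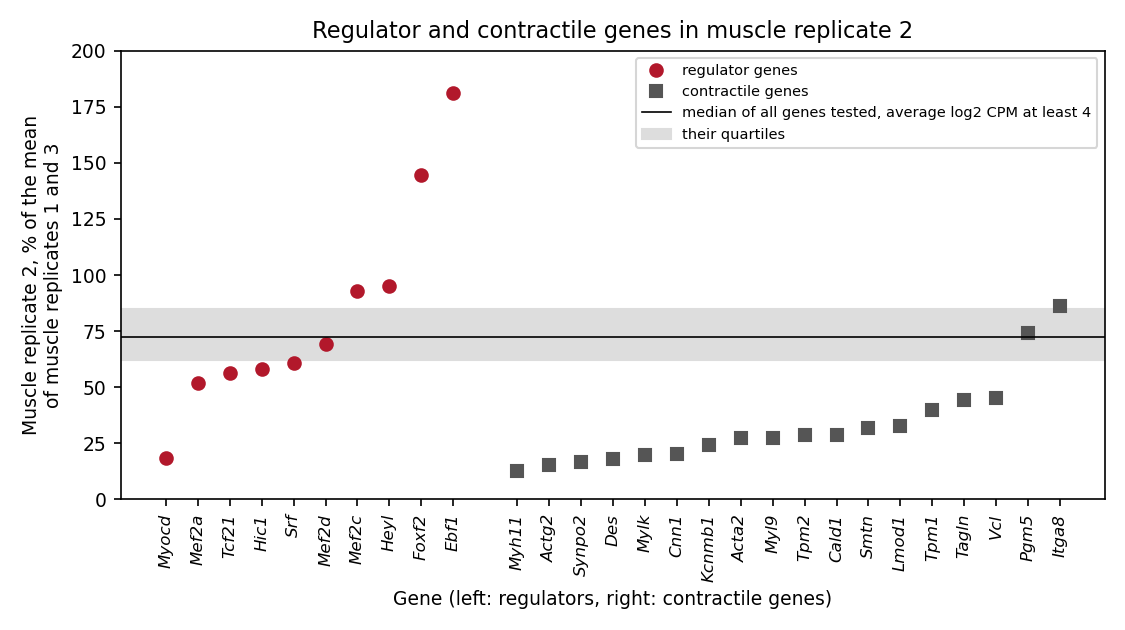
Level of each regulator (red circles) and each of 18 contractile genes (grey squares) in muscle replicate 2, as a percent of the mean of muscle replicates 1 and 3, with the median and quartiles of all genes tested averaging 4 or more in log2 CPM. Myocd lies at 18.4%, among the contractile genes, and Heyl at 95.2%.

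Other cell types could be held by the GFP gate, so their markers were set beside the regulators. Higher in muscle were 3 of 5 pericyte markers tested (Rgs5, Cspg4 and Pdgfrb), 4 of 6 fibroblast, 2 of 7 chondrogenic (Sox9 and Col9a1), 2 of 5 cardiac, 1 of 7 endothelial and 1 of 7 skeletal myoblast markers (Actc1). None of the neural and glial (6), mesothelial (4) and erythroid (2) markers tested was called by edgeR in either direction, with 0 at an unadjusted p under 0.05. The endothelial sum was 68.1 to 86.9 CPM in muscle, most of it from Tek (26.6 to 34.6 CPM) and Esam (20.4 to 28.9 CPM, the marker called), while Pecam1 and Cdh5 were at or under 6.48 CPM in every library. The pericyte sum in muscle was 1023 to 1156 CPM, and its part in the level of Heyl was not tested.

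Levels between genes were compared as CPM per kilobase of merged exon length. In muscle the order was Heyl (84.8 ± 2.76), Tcf21 (71.0 ± 22.3), Myocd (48.1 ± 32.2), Hic1 (16.6 ± 8.92), Srf (11.2 ± 3.73), Mef2c (9.90 ± 0.41), Mef2d (3.99 ± 1.50), Ebf1 (3.16 ± 1.16), Mef2a (1.65 ± 0.93) and Foxf2 (1.63 ± 0.37), as mean ± SD over 3 libraries. Of neighbours in that order, only Mef2c and Mef2d did not overlap. In epithelium the first 3 were Srf (8.54 ± 0.53), Tcf21 (6.94 ± 5.40) and Hic1 (6.30 ± 4.81), and the remaining 7 were at 0.441 to 1.73. Only Hic1 and the next gene, Mef2a, did not overlap.

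Relatives and partners of the regulators were described from lists. The myocardin-related factor genes Mrtfa and Mrtfb were not called, with log2 fold changes of -0.11 ± 0.29 and 0.06 ± 0.23 (SE; edgeR adjusted p = 0.94 and 0.96), and their levels were at 25.5 to 61.0 CPM in muscle. Among 16 SRF cofactors and partners, 7 were higher in muscle and 0 in epithelium, with a median log2 fold change of 1.13. They included Elk3, a ternary complex factor gene (2.43 ± 0.26), and the LIM protein genes Csrp1 (3.09 ± 0.34) and Fhl2 (3.43 ± 0.44), at edgeR adjusted p values of 0.00075, 0.00085 and 0.0015.

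Genes that SRF serves moved in both directions. All 18 contractile genes were higher in every muscle library than in every epithelial one, and 17 passed the test (median log2 fold change 5.90). Kcnmb1, a potassium channel subunit gene, did not, at 3.67 ± 1.20 (edgeR adjusted p = 0.097). Actg2, the gene of gamma smooth muscle actin itself, had the largest fold change of the list, 9.77 (edgeR adjusted p = 0.00037), and names the reporter that chose the muscle cells. Of 16 immediate early and cytoskeletal targets, 5 were higher in muscle and 3 in epithelium. Tgfb1i1, a focal adhesion gene, rose by 5.75, Flna by 2.46 and Zyx by 2.06 on the log2 scale, whereas the early growth response genes Egr2 and Egr1 were lower in muscle by log2 fold changes of -2.66 and -1.89 and Ier2 by -1.25. Dissociation of the tissue for 15 minutes preceded the sort of both groups.

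Of 18 MEF2 repressors, kinases and coactivators, 1 was higher in muscle and 1 in epithelium. Hdac5, a class IIa deacetylase, rose by 1.18 ± 0.30 and Mapk14, the kinase p38 alpha, was lower in muscle by a log2 fold change of -1.76 ± 0.32 (edgeR adjusted p = 0.039 and 0.0081). Of 14 bHLH partners and relatives of Tcf21 tested, 2 passed the test as higher in muscle and 1 as higher in epithelium, namely the E-protein genes Tcf4 (1.08) and Tcf12 (1.41) and, lower in muscle, Tcf3 (-1.83). In the forkhead list 3 of 11 were higher in muscle, and Foxf1, the paralogue of Foxf2, had a log2 fold change of 4.10 ± 0.71 (edgeR adjusted p = 0.0069), beside 5.12 for Foxs1 and 2.91 for Foxc2. Foxf1 was at 145, 48.5 and 154 CPM in muscle and 5.71, 12.97 and 1.99 CPM in epithelium.

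Among Hes, Hey and Notch pathway genes, 15 in all, 3 passed the test as higher in muscle and 1 as higher in epithelium. Hey2, a close relative of Heyl, rose by 4.47 ± 0.56 (edgeR adjusted p = 0.0015), Maml2 by 1.19 and Notch1 by 1.31, and Maml3 was lower in muscle by a log2 fold change of -1.46. Hey1, another relative, had 0.56 ± 0.30 (edgeR adjusted p = 0.37), and Hes1 and Notch3 did not pass either (-0.36 and 0.27, adjusted p = 0.56 and 0.82). Of 7 Ebf and Hic relatives and Ebf partners, only Ebf3 was called, at 2.46 ± 0.61 (edgeR adjusted p = 0.033), while Ebf2 had 1.71 and Hic2 -0.86 (adjusted p = 0.19 and 0.063).

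**Figure D5:**
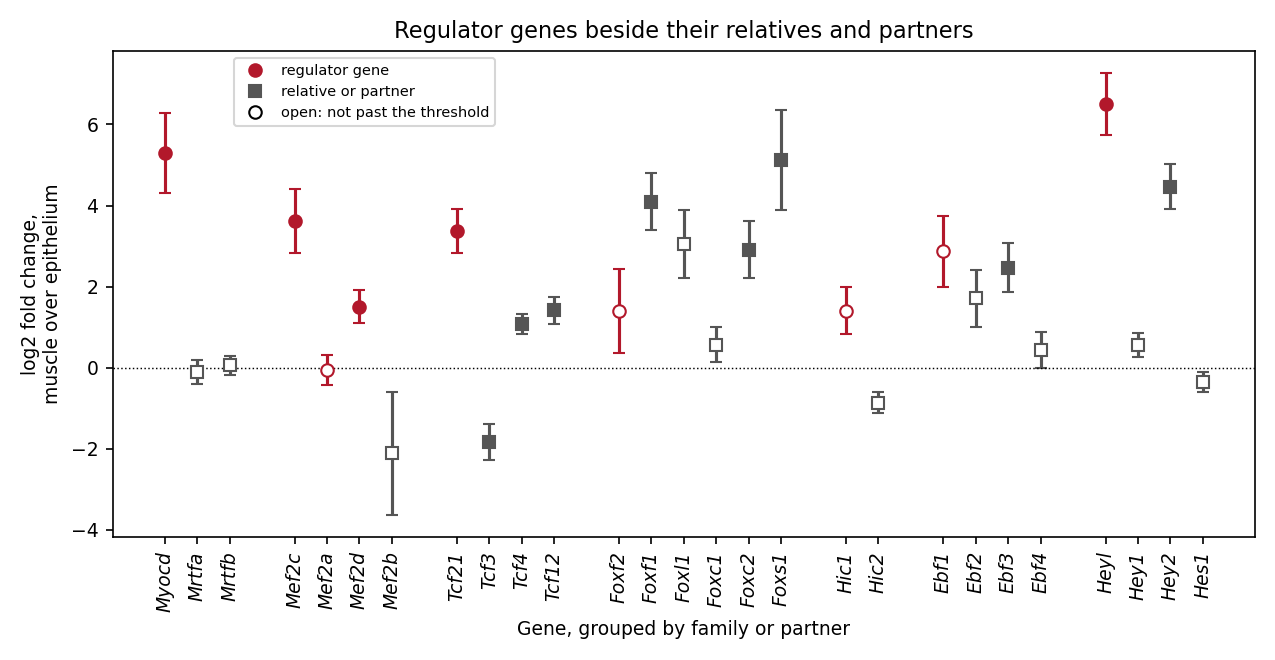
Log2 fold change of muscle over epithelium with SE for each regulator (red circles) and its relatives or partners (grey squares), grouped by family, with open markers for genes not past the adjusted p of 0.05. Heyl (6.50) and Hey2 (4.47) are filled and Hey1 (0.56) is open, as are Mrtfa and Mrtfb.

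The genes most like each called regulator were sought by Pearson's r of log2 CPM over the 6 libraries, among 9370 other genes averaging 4 or more in log2 CPM, as a description over points that share the split of the groups. Nearest to Myocd were Mustn1, Nexn and Lztfl1 (r 0.996 to 0.998), nearest to Mef2c were Cd44, Flt1 and Hspb7, nearest to Mef2d were Gstp2, Bloc1s1 and Ndufb11, nearest to Tcf21 were Cdh6, Emilin1 and Gas2, and nearest to Heyl were Epha3, Nrp1 and Nid2 (r 0.996 to 0.999). Of these, Nexn, the gene of the actin-binding protein nexilin, rose by 4.41 and Mustn1 by 5.61, whereas Lztfl1 (0.63, edgeR adjusted p = 0.14) and the 3 nearest to Mef2d (0.82 to 1.04, adjusted p = 0.052 to 0.084) did not pass the test. The other 9 did.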

How the data were processed

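Counts per gene were used as the authors deposited them, as whole numbers for 6 libraries. Per the submitters' processing notes, Trim Galore, Bowtie2, Cufflinks, DESeq and mm10 were named; the counting program and annotation are not given in the sources used here. Per the labels' protocols, RNA was extracted with Trizol, cDNA made with SMART-Seq v4 and libraries with Nextera XT, so counts include PCR copies and keep no strand. Of counts from 1 to 19, 73.8% to 79.6% per library were even, against 49.4% to 50.6% of counts of 100 or more.

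Libraries were grouped by title. Analysis in R 4.3.3 used filterByExpr to drop low genes, TMM scaling and a comparison by the two-sided robust quasi-likelihood test of edgeR 4.0.16, with Benjamini-Hochberg adjustment over 19375 genes and a threshold of 0.05. CPM uses TMM-scaled library sizes. The script was tested on simulated data. Promoter sequences came from RefSeq and exon lengths from GENCODE M21. Alternatives were the scaling, filter, tool (DESeq2 1.42.0 and limma 3.58.1), threshold, halved counts, header date, background covariate, replicate block and each library left out; they were run for the regulators, not for single genes of the lists. The regulators and gene lists (8, and 12 of cell type markers) were chosen with earlier results of these data known. Named are all regulators, up to 3 genes per list and direction with the smallest adjusted p among those called, family members set beside a regulator, and the 3 genes most like each called regulator. 4 list genes were matched through RefSeq synonyms. Outside that rule, Myl9, Vcl, Synpo2, Actg2, Kcnmb1 and marker genes were named after their values were seen. The result of 1 marker list is not reported here.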

Additional observations from a re-analysis of the deposited data

How the results depend on the processing

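The number of regulators higher in muscle was 5 and became 3 without TMM scaling, 3 at an adjusted p under 0.01 and 3 with the replicate block. It ran from 2 to 6 when 1 library was left out. The share of all genes tested that was higher in muscle was 6.58%, and 5.37%, 2.99% and 8.27% in the 3 named settings. Without 1 library that share ran from 2.82% to 8.25%. The count of all genes called was 2071 and became 3531 with DESeq2, 983 at an adjusted p under 0.01 and 3178 with the header date as a factor, and ran from 1169 to 2573 when 1 library was left out. Mef2a, not called in any setting, had a log2 fold change of 0.12 over the libraries of the later header date and of -0.62 to 0.20 when 1 library was left out. The cause was not tested. For single regulators across these settings, 139 results kept direction and side of the threshold, 18 kept direction and lost the call, 10 gained it and 3 turned direction. Tcf21 and Heyl held in all 17 alternatives each. The difference in the Mef2c share kept its sign in each setting, from 43.2 to 63.1 points without 1 library.

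Deviations from the group means correlated at 0.59, 0.73 and -0.57 for the libraries numbered 1, 2 and 3. Not every library correlated best with its own number, so numbers were not taken as pairs in the main test. The header identifiers share C1 9-16-20 for both libraries numbered 1 and CT 9-3-20 for both numbered 2. For number 3 they differ (CT in muscle, C2 in epithelium). Whether the libraries numbered 1 and 2 were pairs is not stated. With the replicate block, Myocd (adjusted p = 0.079) and Mef2d (0.057) lost the call. With 3 against 3 the smallest exact permutation p is 0.10. Foxf2 rested on 23 to 131 counts a library, and what depth would call its difference was not tested.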
